A study of Homo sapiens with 5 samples.

Results

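The genes described here are 8 that make MHC class I molecules and load them with peptide: HLA-B, HLA-C, HLA-E, B2M, TAP1, TAP2, TAPBP and ERAP1. They were chosen by name, and all 8 were found among the 10626 genes of the table. RNA sequencing compared 3 libraries of parental HAP1 cells, a near-haploid human line of leukaemic origin, with 2 libraries of HAP1 cells in which METAP1 had been edited with CRISPR/Cas9. METAP1 encodes an enzyme that removes the first methionine of new proteins, and the edit was an insertion of 179 bp in exon 4 at position 99035439 of chromosome 4. The labels give no build for this position, and their text once writes METAP1D for the edited gene. Both groups grew in the same medium with serum and antibiotics, and no cytokine is named. The labels describe 1 edited line, so genotype and clone cannot be told apart, and the titles speak of biological replicates, with no account of separate cultures. The p-values therefore measure the spread between these libraries.

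MHC class I molecules carry short peptides, cut from proteins inside the cell, to the surface, where cytotoxic T cells and natural killer cells inspect them. A heavy chain (HLA-B, HLA-C or HLA-E here) pairs with the light chain B2M. Proteasomes make the peptides, the TAP1 and TAP2 transporter brings them into the endoplasmic reticulum, the aminopeptidase ERAP1 trims them, and tapasin (TAPBP) holds the empty heavy chain beside the transporter until a peptide fits.

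The letters upstream of the start sites of 5 of these genes are shown because class I promoters share a known arrangement of elements. Interferon response elements bind IRF family factors, kB elements bind NF-kB, and the X2 and Y boxes of the SXY module bind CREB family factors and NF-Y, beside the RFX complex, with NLRC5 as coactivator. Each line gives the 250 bases before the RefSeq start site on the gene's own strand (GRCh38.p14), 5′ to 3′. Capitals mark matches to GAAANNGAA (interferon response letters), to GGANTNNCC (kB letters) or to TGACG followed on the same strand by ATTGG after at most 40 bases (X2 and Y letters).
HLA-B, chr6:31357180-31357429, minus strand: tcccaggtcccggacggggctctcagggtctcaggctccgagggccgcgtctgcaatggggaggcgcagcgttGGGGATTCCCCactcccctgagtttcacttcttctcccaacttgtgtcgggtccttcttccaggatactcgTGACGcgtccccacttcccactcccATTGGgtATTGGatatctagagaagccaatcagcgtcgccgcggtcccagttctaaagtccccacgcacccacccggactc
HLA-C, chr6:31272093-31272342, minus strand: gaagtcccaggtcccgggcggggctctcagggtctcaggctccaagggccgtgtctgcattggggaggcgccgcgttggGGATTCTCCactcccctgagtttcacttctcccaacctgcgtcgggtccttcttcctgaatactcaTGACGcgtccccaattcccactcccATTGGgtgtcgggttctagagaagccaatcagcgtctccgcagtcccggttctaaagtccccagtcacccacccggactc
B2M, chr15:44711267-44711516, plus strand: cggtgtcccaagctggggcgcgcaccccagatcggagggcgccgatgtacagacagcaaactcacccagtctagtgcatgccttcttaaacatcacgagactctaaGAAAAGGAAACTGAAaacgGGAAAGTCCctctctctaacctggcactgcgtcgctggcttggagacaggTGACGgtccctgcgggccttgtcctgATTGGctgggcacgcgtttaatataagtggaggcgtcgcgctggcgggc
TAP1, chr6:32853705-32853954, minus strand: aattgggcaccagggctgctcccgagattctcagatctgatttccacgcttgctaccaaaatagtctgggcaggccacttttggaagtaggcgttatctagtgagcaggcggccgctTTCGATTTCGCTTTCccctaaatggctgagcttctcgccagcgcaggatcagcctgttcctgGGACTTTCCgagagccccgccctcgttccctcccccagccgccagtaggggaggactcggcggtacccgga
TAPBP, chr6:33314079-33314328, minus strand: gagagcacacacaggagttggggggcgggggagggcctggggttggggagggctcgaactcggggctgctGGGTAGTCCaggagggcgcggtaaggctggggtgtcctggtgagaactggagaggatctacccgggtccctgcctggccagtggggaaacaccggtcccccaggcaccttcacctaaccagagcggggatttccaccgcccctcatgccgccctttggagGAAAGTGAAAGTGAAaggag

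Of the 8 genes, 7 had an entry among the RefSeq promoters. The X2 and Y letters in this order were found in 3 of the 7, HLA-B, HLA-C and B2M, against 1.37% of 27305 genes with entries of the same length. In HLA-B the X2 letters began 106 bases and the Y letters 81 bases before the start, with a second Y match 74 bases before it. In HLA-C the same pair stood at 105 and 80 bases and in B2M at 75 and 49 bases. The interferon letters, searched on both strands, were found in 4 of 7 (B2M, TAP1, TAP2 and TAPBP), against 8.41% of genes, as overlapping pairs except in TAP2. The kB letters, also on both strands, were found in 5 of 7 (HLA-B, HLA-C, B2M, TAP1 and TAPBP), against 14.4% of genes. The HLA-B kB match reads on both strands. Shortly after their kB letters HLA-B and HLA-C both read gagtttcacttct, which GAAANNGAA does not match on either strand. Other spellings of the interferon response element were not searched, so HLA-B and HLA-C are not shown to lack it. ERAP1 had no such interferon, kB or X2 and Y match in either of its entries. The motif letters were written down after these promoters had been read, and a match describes letters, not binding.

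The table held 12570051 to 16519292 reads per library, and the smallest deposited RPKM in the wild type libraries was 1.00 to 1.01. Recomputed from counts and table totals, the smallest was 1.10 to 1.13 over all 5 libraries. Genes near zero were not analysed here. METAP1 itself had 1868, 1932 and 1944 normalized counts in the wild type libraries and 611 and 748 in the knockout libraries, which are numbered 2 and 3. A normalized count is a read count divided by the library's relative effective size. Of 15 markers of antigen-presenting blood cells, 1 was in the table, CD83, at 142.5 to 155.8 normalized counts in wild type cells and 153.4 to 161.4 in the knockout. Of 11 fibroblast and mesenchymal markers 5 were in the table, and their summed level was 8869 to 9900 in wild type cells and 11241 to 11694 in the knockout. Of 7 epithelial markers 4 were in the table, with sums of 846 to 955 and 1784 to 1973. By the test defined below, CDH2, FN1, S100A4, KRT8 and KRT18 were the markers that rose. The other measured markers, named with their values known, had log2 fold changes of 0.08 (VIM), -0.16 (ZEB1), 0.14 (EPCAM) and -0.52 (ESRP1). None of these passed that test. KRT8 alone went from a mean of 142 to 944 normalized counts. The part of the markers in the class I values was not tested. In bulk RNA, fewer cells of a type and less RNA per cell cannot be told apart.

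Transcripts of 3 of the 8 genes fell in the METAP1 knockout: HLA-B, B2M and TAP1. By edgeR, 0 of the 8 rose, as by DESeq2 and limma-voom, and 1 (ERAP1) was higher at an unadjusted p under 0.05. HLA-B fell most, to 0.544 times the wild type level. A gene was called when its adjusted p was under 0.05 by the edgeR quasi-likelihood test, adjusted by Benjamini and Hochberg over 10620 tested genes. The same call was made for 29.7% of all tested genes, with 14.8% lower and 14.9% higher, so the 3 of 8 (37.5%) stand beside a background of 14.8%. Without knockout library 3, 1 of the 8 (HLA-B) was called lower. The median log2 fold change of the 8 was -0.38, against 0.01 over all tested genes. The 2 groups did not overlap in 6 of the 8 genes, 4 lower and 2 higher, where 59.3% of all tested genes did not overlap (29.2% lower and 30.1% higher).

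**Figure D1:**
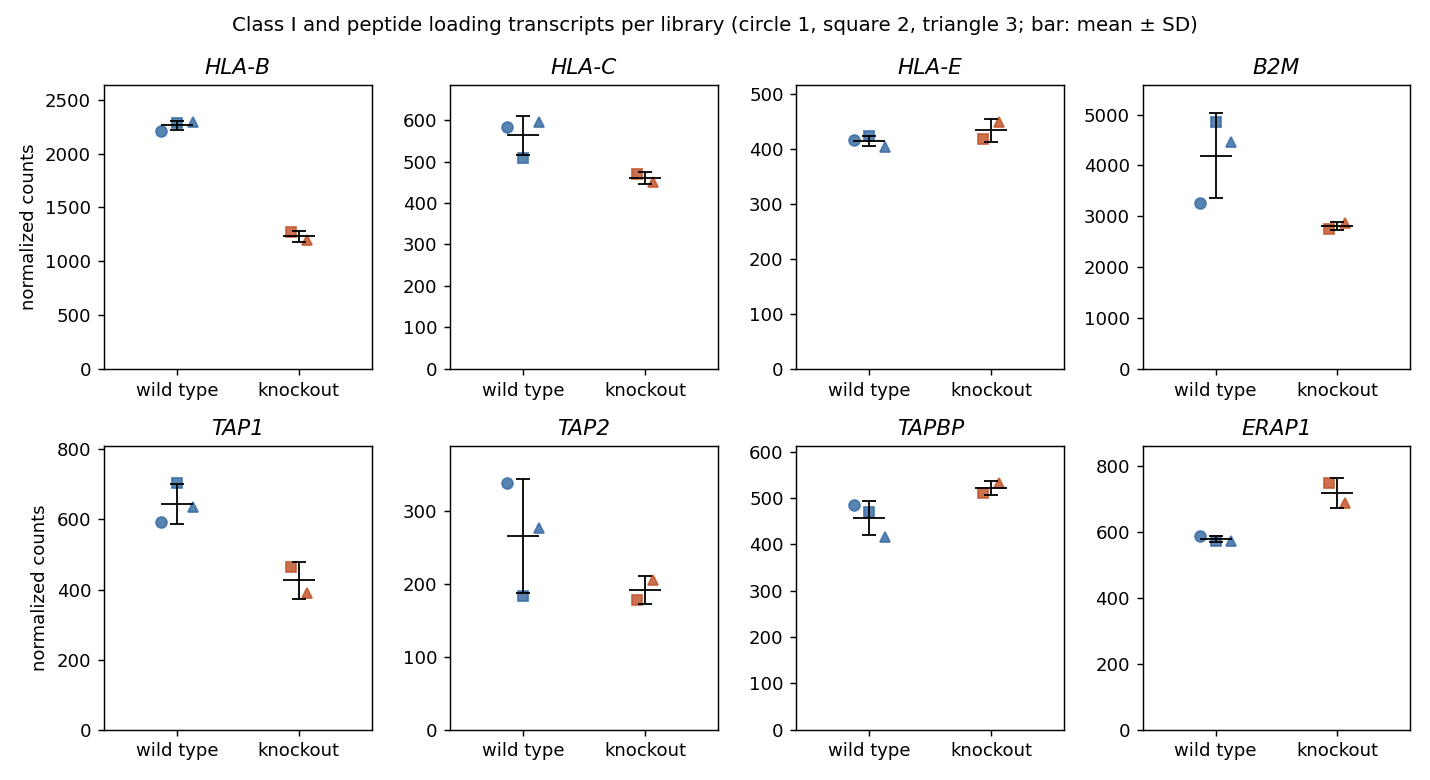
Normalized counts of the 8 genes in each library, with wild type libraries in blue and knockout libraries in orange, the library number by symbol, and mean and SD as bars. HLA-B stands at 2214 to 2294 in wild type cells and 1194 to 1269 in the knockout, while HLA-E and TAP2 overlap between the groups.

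HLA-B (ENSG00000234745, chromosome 6, 31353875 to 31357179, minus strand, GRCh38.p14) encodes a classical heavy chain that presents peptides to cytotoxic T cells. It had 2214, 2281 and 2294 normalized counts in wild type replicates 1 to 3, and 1269 and 1194 in knockout libraries 2 and 3. The gap between the groups was many times the spread within either. On the log2 scale HLA-B changed by -0.88 (SE 0.092, edgeR adjusted p = 0.000405). This call held whichever library was left out, with values of -0.92 to -0.83. The authors' deposited table gave -0.86 for HLA-B.

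HLA-C (ENSG00000204525, chromosome 6, 31268749 to 31272092, minus strand), a heavy chain that also serves as a ligand of natural killer cell receptors, had 584, 509 and 595 normalized counts in wild type cells. The knockout libraries had 470 and 450, below all 3 wild type libraries. Its log2 fold change was -0.29 (SE 0.123), which missed the threshold (adjusted p = 0.105, edgeR quasi-likelihood test).

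HLA-E (ENSG00000204592, chromosome 6, 30489509 to 30494194, plus strand) encodes a heavy chain that mostly shows peptides from the leader sequences of other class I chains to natural killer cells. It had 416, 422 and 404 normalized counts in wild type cells and 418 and 449 in the knockout, so the groups overlapped. The log2 fold change was 0.07 (SE 0.115, edgeR adjusted p = 0.695), and the sign stayed positive whichever library was left out (0.02 to 0.12).

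Heavy chain genes resemble each other, and reads that fit several may be lost or split. Among the 75-base windows of GENCODE release 29 transcripts, as long as the reads, 0.296% of those of HLA-B, 1.30% of HLA-C and 1.67% of HLA-E also occurred in a transcript of another gene. HLA-B and HLA-C share an annotated span in that release, on the same strand. These figures are for the reference alleles, and how reads of the HAP1 alleles were placed was not tested.

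B2M (ENSG00000166710, chromosome 15, 44711517 to 44718145, plus strand) encodes the light chain that every class I heavy chain needs. It had 3262, 4856 and 4462 normalized counts in wild type replicates 1 to 3 and 2752 and 2863 in knockout libraries 2 and 3. Wild type replicate 1 lay closer to the knockout than to the other 2 wild type libraries. B2M fell by 0.58 on the log2 scale (SE 0.163, edgeR adjusted p = 0.0325). Leaving out either knockout library ended the B2M call (-0.55 without 2, -0.61 without 3), as did leaving out wild type replicate 3 (-0.53), and its value was -0.75 without wild type replicate 1.

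TAP1 (ENSG00000168394, chromosome 6, 32845209 to 32853704, minus strand) and TAP2 (ENSG00000204267, chromosome 6, 32821831 to 32838739, minus strand) encode the 2 chains of the peptide transporter. TAP1 had 593, 705 and 636 normalized counts in wild type cells and 463 and 389 in the knockout. All knockout values lay below all wild type values, and the log2 fold change was -0.60 (SE 0.135, adjusted p = 0.0124, edgeR quasi-likelihood test). The TAP1 call was lost without knockout library 3, at -0.48. TAP2 had 339, 183 and 276 normalized counts in wild type cells and 178 and 205 in the knockout. Wild type replicate 2 was among the knockout values, and the wild type SD was 29.5% of the mean. The log2 fold change of -0.46 (SE 0.252) was not called (edgeR adjusted p = 0.198), with -0.27 without wild type replicate 1 (edgeR adjusted p = 0.334) and -0.68, then called, without wild type replicate 2 (edgeR adjusted p = 0.0139). Of the TAP2 windows of 75 bases, 30.8% also occur in an overlapping annotated gene, against 0.122% for TAP1.

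TAPBP (ENSG00000231925, chromosome 6, 33299694 to 33314078, minus strand) encodes tapasin, the bridge between heavy chain and transporter. It had 486, 470 and 416 normalized counts in wild type cells and 511 and 533 in the knockout, just above them. The log2 fold change was 0.19 (SE 0.121, edgeR adjusted p = 0.259). ERAP1 (ENSG00000164307, chromosome 5, 96760813 to 96935854, minus strand), the trimming aminopeptidase, had 588, 572 and 570 normalized counts in wild type cells and 748 and 686 in the knockout. The groups did not overlap, and the log2 fold change of 0.31 (SE 0.107) missed the threshold (edgeR adjusted p = 0.0567). ERAP1 was called without wild type replicate 1 (0.31, edgeR adjusted p = 0.0485) and with library totals without TMM scaling (0.33), and it stood at 0.17 with each library's gene length trend removed. ERAP1 overlaps CAST on the opposite strand, and whether reads were counted by strand is not stated.

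Per length, B2M was the most abundant of the 8 transcripts in wild type cells, at an RPKM, recomputed here from counts and effective library sizes, of 183 ± 36.3 (SD, n = 3). HLA-B followed at 78.4 ± 1.47, HLA-C at 20.5 ± 1.70, TAP1 at 12.9 ± 1.13 and HLA-E at 10.4 ± 0.24 (SD, n = 3). TAPBP at 6.69 ± 0.53, ERAP1 at 5.33 ± 0.09 and TAP2 at 3.02 ± 0.89 were lowest (SD, n = 3). Neighbours in this order did not overlap in the wild type libraries.

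In the knockout the level of B2M was 123 ± 3.43, of HLA-B 42.7 ± 1.82 and of HLA-C 16.8 ± 0.52 on the same recomputed RPKM scale (SD, n = 2). TAP1, at 8.53 ± 1.04, then stood below HLA-E, at 10.9 ± 0.54 (SD, n = 2), in both knockout libraries, whereas it stood above HLA-E in all 3 wild type libraries. TAP1 also overlapped TAPBP (7.64 ± 0.23) in the knockout, and ERAP1 (6.62 ± 0.41) and TAP2 (2.18 ± 0.22) came after them (SD, n = 2).

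Ratios of 2 transcripts within a library do not depend on how the library is scaled. The HLA-B to HLA-C ratio of counts per kilobase was 3.61, 4.26 and 3.66 in wild type replicates 1 to 3 and 2.57 and 2.53 in knockout libraries 2 and 3. The TAPBP to TAP1 ratio was 0.598, 0.487 and 0.479 in wild type cells and 0.806 and 1.00 in the knockout. In both ratios the groups did not overlap, but the exact permutation test used for ratios cannot reach 0.05 with this few libraries.

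The HLA-B to B2M ratio was 0.538, 0.372 and 0.407 in wild type cells and 0.365 and 0.331 in the knockout, which is close to wild type replicate 2. The ratios of HLA-E to B2M and of ERAP1 to B2M were higher in both knockout libraries, by 0.62 and 0.87 on the log2 scale. Those of HLA-C to B2M and of TAP1 to TAP2 overlapped between the groups. With 3 against 2 libraries the smallest possible p of an exact two-sided permutation test is 0.2, and it was 0.2 for the 5 ratios that did not overlap (0.28 adjusted over 7 ratios), 0.6 for HLA-C to B2M and 1.0 for TAP1 to TAP2.

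**Figure D2:**
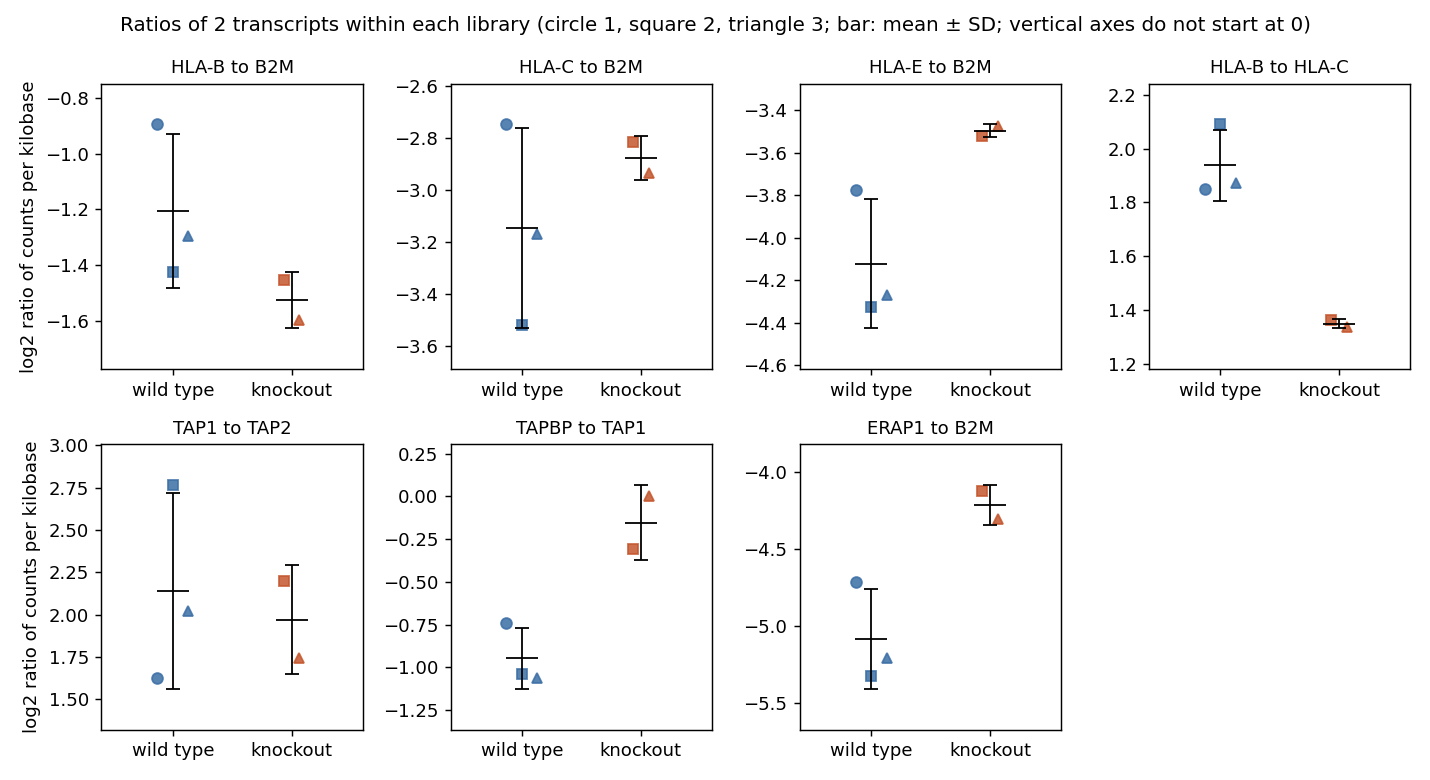
Log2 ratios of counts per kilobase of 2 transcripts in each library, with wild type in blue, knockout in orange, symbols for library numbers and bars for mean and SD. The HLA-B to HLA-C ratio is lower in both knockout libraries than in any wild type library, and the TAP1 to TAP2 ratio overlaps.

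Genes outside the 8 that followed HLA-B most closely over the 5 libraries were CCNE2, which encodes cyclin E2, LPCAT1, an acyltransferase of phospholipid remodelling, and APEX1, an endonuclease of base excision repair. The root mean square difference of their centred log2 normalized counts from those of HLA-B was 0.015, 0.022 and 0.023. The nearest of the other 7 genes was TAP1, at 0.161. CCNE2, LPCAT1 and APEX1 were the closest of all genes with a mean of at least 100 counts. A smallest distance among so many genes is not comparable with the smallest among 7. LPCAT1, for instance, had 3161, 3253 and 3182 normalized counts in wild type cells and 1812 and 1647 in the knockout. B2M was followed most closely by TMEM106C (0.041), the glutathione transferase gene MGST1 (0.044) and the dynein light chain gene DYNLT3 (0.047). They were picked for likeness to B2M over the same libraries. That wild type replicate 1 is their lowest wild type library, as for B2M, follows from that choice. TMEM106C, for example, had 1541 normalized counts there against 2185 and 2068 in the other wild type libraries.

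Among the other class I heavy chains and class I-like genes, 7 of 16 listed were in the table, of which 1 fell and 0 rose, with a median log2 fold change of -0.24. The 1 called lower is 14.3%, beside 14.8% lower and 14.9% higher over all tested genes, whose median was 0.01. The number called lower was 2 without wild type replicate 1. Calls over all tested genes also depended on the library left out, as given at the end. A shift in such a count is therefore not by itself particular to a list. MICA, a stress-induced ligand of an activating receptor on natural killer cells, had 337 ± 38.8 normalized counts in wild type cells and 189 ± 8.29 in the knockout (SD, n = 3 and 2). Its log2 fold change was -0.84 (SE 0.150, edgeR adjusted p = 0.00480), and the call was lost without knockout library 3 (-0.79). Its near relative MICB stood at -0.28 (SE 0.151), not called, and is named here with its value known.

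Of 13 endoplasmic reticulum chaperones and folding enzymes that class I molecules use, 12 were in the table. CALR, which encodes the calreticulin of the loading complex, was the 1 that fell, with 7639 ± 278 normalized counts in wild type cells against 4838 ± 323 in the knockout (SD, n = 3 and 2), and none rose. No single left-out library ended the CALR call, but without wild type replicate 1 the chaperones called numbered 5 lower and 1 higher. With all libraries the median of the list was -0.11. Its 1 lower call is 8.33%, beside 14.8% lower and 14.9% higher over all tested genes. CANX (calnexin) and PDIA3 (ERp57), other helpers of heavy chain folding named after their values were seen, had log2 fold changes of -0.24 and -0.15 and were not called.

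Of 20 proteases and proteasome forms that make or trim peptides, 16 were in the table, and 3 fell and 0 rose, with a median of -0.11. Those 3 are 18.75%, beside 14.8% lower and 14.9% higher over all tested genes. Without wild type replicate 1, 6 were called lower, beside the dependence of calls over all tested genes on the library left out. PSME1, a subunit of the proteasome activator PA28, went from 1322 ± 104 down to 843 ± 51.6 normalized counts (SD, n = 3 and 2), a call that held in each left-out fit. The catalytic subunit gene PSMB5 had a log2 fold change of -0.46 (SE 0.128) and the proteasome assembly gene POMP -0.37 (SE 0.101). Both lost their calls without wild type replicate 3 or either knockout library, and POMP also with the length trend removed (-0.23). The immunoproteasome subunits PSMB8, PSMB9 and PSMB10 were not analysed here.

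Of 22 regulators of class I transcription, 19 were in the table, and 4 fell and 1 rose, with a median of -0.14. These calls are 21.1% lower and 5.26% higher, beside 14.8% and 14.9% over all tested genes. RFXANK, a subunit of the RFX complex, went down from 388 ± 23.8 to 221 ± 4.85 normalized counts (SD, n = 3 and 2), with a log2 fold change of -0.81 (SE 0.129, edgeR adjusted p = 0.00283). Its partners in that complex, RFX5 and RFXAP, named after their values were seen, had -0.01 (SE 0.140) and -0.14 (SE 0.210) and were not called. NFYB, a subunit of the NF-Y factor that binds the Y letters shown above, had -0.46 (SE 0.126) and was called lower. The other NF-Y subunit genes, NFYA at -0.02 (SE 0.199) and NFYC at -0.21 (SE 0.103), were not called and are named here with their values known.

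EZH2, the catalytic subunit of the Polycomb repressive complex PRC2, had 1677 ± 116 normalized counts in wild type cells and 1027 ± 151 in the knockout, a called decrease (SD, n = 3 and 2). Its partner EED fell as well (-0.39, SE 0.123), while another partner, SUZ12, was not called (-0.15, SE 0.103). EED and SUZ12 are named here with their values known. RFXANK and EZH2 kept their calls whichever library was left out. NFYB lost its call without wild type replicate 3 or either knockout library, and in each of these fits 2 regulators were called lower and 0 higher.

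Of 17 genes of class I surface turnover and traffic, 15 were in the table, with 2 lower, 2 higher and a median of 0.10. That is 13.3% in each direction, near the 14.8% lower and 14.9% higher over all tested genes. Leaving out 1 library gave 0 to 5 lower and 0 to 6 higher, with the most in both directions without wild type replicate 1. The ubiquitin ligase gene WWP2 (-0.60, SE 0.135) and the recycling GTPase gene RAB11A (-0.47, SE 0.098) fell. IRGQ, which encodes an autophagy receptor for class I chains (0.48, SE 0.120), and the vesicle coat gene SEC24B (0.41, SE 0.125) rose. Each of these 4 lost its call without at least 1 library: WWP2 without knockout library 2 (-0.49), the others without wild type replicate 3 or either knockout library, and SEC24B also without wild type replicate 2 (0.30).

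Of 29 interferon-stimulated genes, a list that leaves out the 8 genes, 12 were in the table. Of these 3 (25.0%) fell and 0 rose, beside 14.8% lower and 14.9% higher over all tested genes. The list median was -0.40, against 0.01 over all tested genes. Without wild type replicate 1 the counts were 6 lower and 1 higher, and without wild type replicate 3 they were 1 and 0. With all libraries the 3 that fell were BST2, which encodes tetherin (-0.63, SE 0.102), OAS3, an oligoadenylate synthetase gene (-0.81, SE 0.220), and TRIM25, a ubiquitin ligase gene (-0.48, SE 0.140). The BST2 call held in each left-out fit, whereas OAS3 and TRIM25 lost theirs without wild type replicate 3 or either knockout library.

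Together these 6 lists held 81 tested genes, of which 14 (17.3%) were called lower and 3 (3.70%) higher, beside 14.8% and 14.9% of all tested genes. In 4 of the lists edgeR called 0 genes higher. At an unadjusted p under 0.05, 1 chaperone and 1 interferon-stimulated gene were higher, and 0 genes of the heavy chain and protease lists. DESeq2 called 1 chaperone higher and 0 in the other 3 lists, and limma-voom 0 in all 4.

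**Figure D3:**
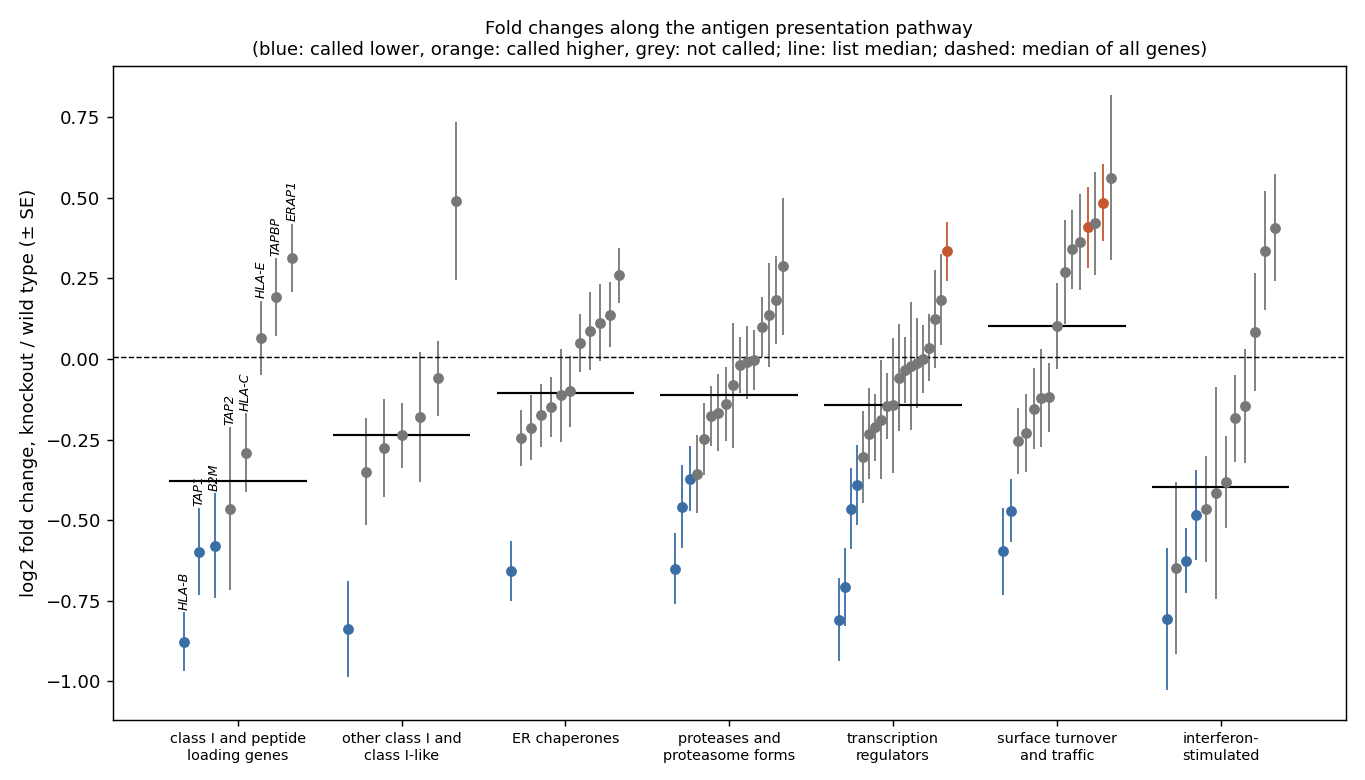
Log2 fold changes with standard errors for the 8 genes and 6 further lists, in blue where called lower, orange where called higher and grey where not called, with the list median as a line and the median of all tested genes dashed. Each list holds called and uncalled genes, and the 8 genes range from -0.88 for HLA-B to 0.31 for ERAP1.

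Of the 8 genes, 6 lie in the MHC region of chromosome 6, taken here as GABBR1 to KIFC1 (29555629 to 33409924, GENCODE release 29, GRCh38), which held 77 tested genes. Of the 77, 10 (13.0%) were called lower and 1 (1.30%) higher, beside 14.8% and 14.9% of all tested genes, with a median log2 fold change of -0.13. HLA-B and MICA, neighbours in the order of measured genes, had -0.88 and -0.84, while HLA-C, on the other side of HLA-B, had -0.29. The largest fold change in the region among called genes was that of HSD17B8, a dehydrogenase gene, at -1.36 (SE 0.217), from 143 ± 27.9 to 55.8 ± 1.84 normalized counts (SD, n = 3 and 2). The 1 gene called higher was FLOT1, a flotillin gene named after its value was seen, at 0.36 (SE 0.110). With wild type replicate 1 omitted 17 were called lower, with wild type replicate 3 omitted 6, and with knockout library 3 omitted 4. The number called higher was 9 without wild type replicate 1 and 3 without wild type replicate 2. It was 0 when wild type replicate 3 or either of the knockout libraries was omitted.

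**Figure D4:**
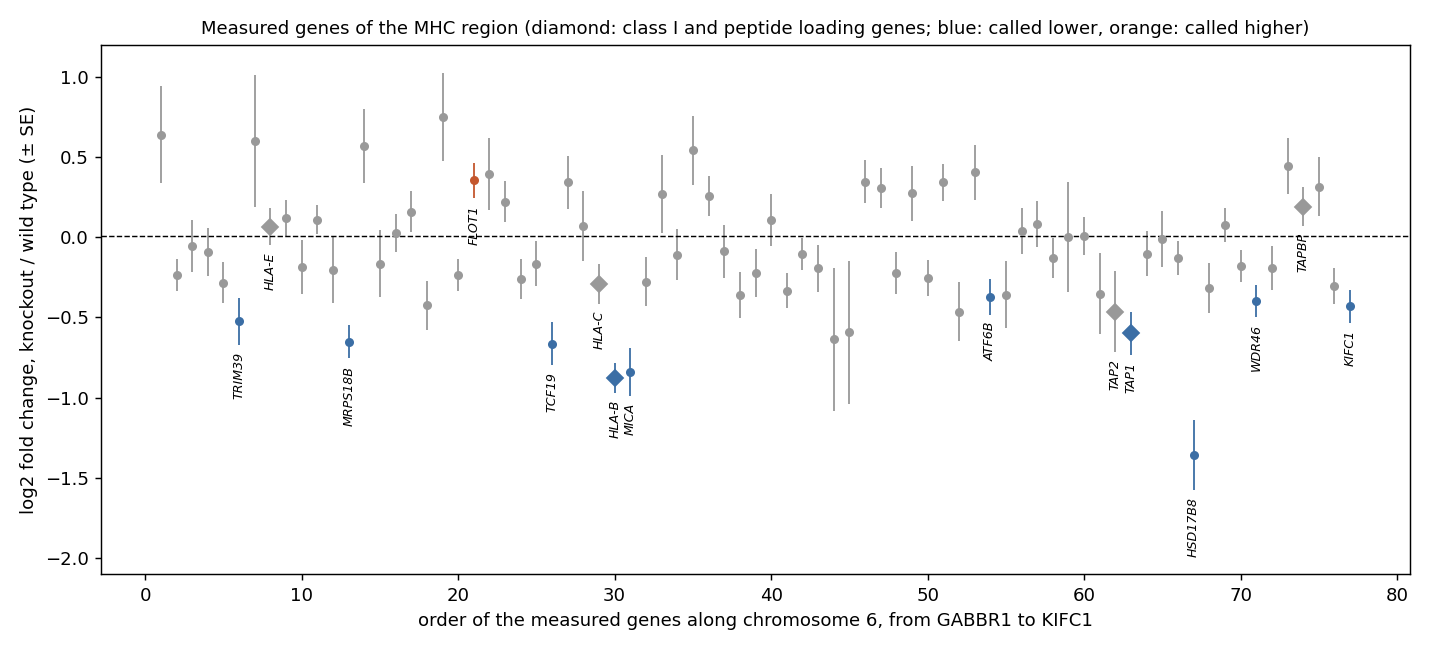
Log2 fold changes with standard errors of the 77 measured genes from GABBR1 to KIFC1 in their order along chromosome 6, with diamonds for the class I and peptide loading genes. Called genes are blue (lower) or orange (higher), and HLA-B and MICA lie side by side near -0.88 and -0.84.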

How the data were processed

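The labels' protocols describe ribosomal RNA depletion of total RNA, a stranded kit and single-end reads of 75 bases. STAR 2.4.0i, HTSeq, DESeq2, GRCh37 and hg19 appear, without roles, in the submitters' processing notes. Read counts of 10626 genes were deposited, and the authors also gave RPKM values. The authors' own comparison, deposited in the same table, holds a mean signal, log2 fold changes, their errors, a test score and p-values. Of RPKM, the smallest value per wild type library was used, and 2 knockout RPKM columns were not used. Of the comparison, the log2 value of HLA-B was used. Knockout columns are numbered 2 and 3 and the titles 1 and 2, so columns and titles were matched by group.

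The fit used edgeR 4.0.16 (R 4.3.3): filterByExpr removed 6 genes, TMM scaled libraries, dispersions were robust, and the two-sided quasi-likelihood test had no covariates. It covered 10620 genes, with Benjamini-Hochberg adjustment, 3 residual degrees of freedom and a common biological coefficient of variation of 11.7%. A gene's SE is its log2 fold change over the square root of F. Steps were tested on simulated counts. Alternatives were median-of-ratios size factors, library totals, no low-count filter, a minimum mean count of 50, DESeq2 1.42.0, limma-voom (limma 3.58.1), each library left out (a lone library is assumed to vary like the others), a replicate block, and removal of length trends (lowess, span 0.3). Per-length levels used the table's gene lengths. Likeness of patterns used log2 of normalized counts plus 0.5, over genes with a mean of at least 100 counts.

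The 8 genes and all lists were chosen with earlier results of these data known. Named were METAP1, the 8 genes, up to 4 called genes per list by adjusted p (the 2 most abundant where none was called), the 3 nearest patterns to HLA-B and B2M, and MHC region genes called with an absolute log2 fold change of at least 1. Genes named otherwise are marked as such. Some genes that the rule names are counted in their lists but not reported here.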

Additional observations from a re-analysis of the deposited data

How the results depend on the processing

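HLA-B was called lower under every setting run, from -0.92 without knockout library 2 to -0.77 with length trends removed. B2M, TAP1 and HLA-B were the genes called lower under all settings that kept the 5 libraries. Without TMM, 1 of the 8 genes was called higher (ERAP1, 0.33). Leaving out 1 library at a time gave 1 to 4 of the 8 called lower and 0 to 1 higher, with B2M from -0.75 to -0.46, TAP1 from -0.73 to -0.48, TAP2 from -0.68 to -0.27 and ERAP1 from 0.25 to 0.37. The TAP1 to TAP2 log2 ratio, -0.17 with all libraries, ranged from -0.42 to 0.14, turning to 0.14 without wild type replicate 2 and to 0.06 without knockout library 3. Over all genes 564 to 2278 were then called lower and 615 to 2313 higher. In the 6 pathway lists together, 14 lower and 3 higher became 7 to 29 and 0 to 9, and in the MHC region 10 and 1 became 4 to 17 and 0 to 9. MHC region genes called higher were 2 without TMM, 3 with DESeq2, 3 with length trends removed and 9 with the replicate block. The cause of these shifts was not tested.

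The block by column number shares numbers 2 and 3 between the groups. Deviations of same-numbered libraries from their group means correlated at 0.032 and -0.002, which shows no sign of pairing. These values cannot settle the matter, because the deviations of 2 knockout libraries from their own mean mirror each other. With the block 10 pathway genes were called higher, B2M stood at -0.73, and the 3 lower calls among the 8 genes were made again. With 3 against 2 libraries, small differences such as those of HLA-C, HLA-E and TAPBP were not detectable at this replication.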
